A study of Mus musculus with 2 samples.

Results

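Mir139 and Mir149 are microRNA genes that lie inside introns of protein-coding genes, Mir139 in Pde2a and Mir149 in Gpc1. They were chosen from the read counts themselves, as the 2 genes with the highest level in a list of 20 microRNA genes described as enriched in brain, out of 2202 microRNA genes counted in all. Their level, and every rank or share drawn from it, is therefore given as a description, without a test. The counts come from microRNA sequencing of tissue labelled as layer of hippocampus, with total RNA as the starting material. The tissue was from male mice of the strain B6CASTF1/J at 10 days of age. These are F1 hybrids between C57BL/6J and CAST/EiJ. The labels give 1 group, with no treatment named, of 2 biological replicates, each from 3 males with animal numbers of its own, while both replicates carry the same donor identifier. The spread between the replicates may thus be partly technical, and with 1 group there was no contrast between conditions.

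MicroRNAs are cut from hairpin transcripts in steps that leave a short duplex, and the retained strand guides Argonaute proteins to target messenger RNAs. Pairing of the target with the seed, the bases next to the 5′ end of the microRNA, largely decides which transcripts are repressed. A microRNA that lies within an intron, in the orientation of the surrounding gene, can be made from that gene's own transcript. Pde2a encodes a phosphodiesterase that breaks down cyclic AMP and cyclic GMP and is expressed in forebrain neurons, including those of the hippocampus. Gpc1 encodes glypican-1, a heparan sulphate proteoglycan held at the cell surface by a lipid anchor.

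The 4 mature products are printed here because the counts are of whole hairpins and do not say which arm the reads came from. They are RefSeq sequences on GRCm38.p6, 5′ to 3′, with the seed, bases 2 to 8, in capitals.
miR-139-5p: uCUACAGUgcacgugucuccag
miR-139-3p: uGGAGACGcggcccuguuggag
miR-149-5p: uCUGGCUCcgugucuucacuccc
miR-149-3p: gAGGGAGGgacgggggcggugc
The 4 seeds differ from each other. Outside the seeds, miR-139-5p and miR-149-5p share the run CGUGUCU, 7 bases that begin at base 12 of the former and at base 9 of the latter. The longest run shared by any other pair of the 4 products has 4 bases.

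The hairpins that hold these products are shown with both arms in capitals and the loop and ends in lower case, on the plus strand of mm10.
Mir139, chr7:101475376-101475443: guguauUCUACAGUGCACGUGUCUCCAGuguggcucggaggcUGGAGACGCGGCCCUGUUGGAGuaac
Mir149, chr1:92850378-92850443: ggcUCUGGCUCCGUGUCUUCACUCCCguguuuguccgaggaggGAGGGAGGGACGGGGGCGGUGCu
Both hairpins are short and rich in G and C. Mir139 (ENSMUSG00000065446.1) has 68 bases, of which 58.8% are G or C. Mir149 (ENSMUSG00000065470.1) has 66 bases, of which 68.2% are G or C. A gene was counted as detected when it reached 2 CPM in both libraries, where CPM is sense counts per 1000000 counts on microRNA genes, and 442 genes did so. The detected genes had a median hairpin of 82 bases and a median G and C content of 52.3%. Of these 442 genes, 19 had a higher G and C content than Mir149 and 112 a higher one than Mir139. The most G- and C-rich arm was miR-149-3p, at 81.8%, and the least was miR-139-5p, at 54.5%. The predicted folding energy per base was -0.52 kcal/mol for Mir139 and -0.56 kcal/mol for Mir149, against a median of -0.43 over detected genes. By this predicted measure 66 detected genes folded more stably than Mir139 and 42 more stably than Mir149. The energy of the whole hairpin was near the median of -35.4 kcal/mol, at -35.6 for Mir139 and -36.7 for Mir149. By that measure 218 of the 442 genes folded more stably than Mir139 and 199 more stably than Mir149.

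The seed of miR-139-5p, CUACAGU, occurred in no other mature product among the 1738 of the RefSeq table, and neither did CUGGCUC of miR-149-5p nor GGAGACG of miR-139-3p. A seed held by 1 gene was common in that table, since 1182 of its 1398 seeds were of this kind. The seed of miR-149-3p, AGGGAGG, recurred in products of 4 other genes. Of these, Mir7016 had 10 and 6 counts in replicates 1 and 2, Mir1943 had 0 and 11, and both genes of miR-6967-5p had 0. With bases 2 to 7 alone, miR-149-5p matched 4 further products, of which the most counted genes were Mir3064 and Mir3085. Their products are shown with bases 2 to 8 in capitals, so that the last capital is the base at which they depart from miR-149-5p.
miR-3064-5p: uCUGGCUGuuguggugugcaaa
miR-3085-3p: uCUGGCUGcuauggcccccuc
Mir3085 had 17.0 CPM in replicate 1 and 38.3 in replicate 2, and Mir3064 had 18.7 and 21.5. Mir7688 (13.7 and 16.6 CPM) and Mir7652 (4 and 2 counts) were the remaining matches of that kind. All of these genes lay far below Mir149 in both libraries. For miR-139-5p no other product matched at bases 2 to 7, and for miR-139-3p the match was miR-6397, whose gene had 0 counts in both libraries.

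Each hairpin lies deep in a long, early intron of its host, on the host's strand. Mir139 is in intron 2 in each of 4 protein-coding transcripts of Pde2a. That intron has 29902 bases, and the hairpin begins 23907 bases after the exon before it and ends 5927 bases ahead of the next exon. A further annotated coding gene, Gm45837, overlaps Pde2a on that strand, and Mir139 overlaps no exon of either gene. Mir149 is in intron 1 of the 9-exon protein-coding transcript of Gpc1. Its intron has 21249 bases, with 18280 bases ahead of the hairpin and 2903 bases after it. Both hairpins thus sit in the downstream part of their introns, 80.0% and 86.0% of the way along for Mir139 and Mir149. Among 182 detected genes in introns of protein-coding transcripts, the median intron had 5262 bases, and 45 genes lay in a longer intron than Mir139 and 51 in a longer intron than Mir149. A place nearer to the downstream than to the upstream exon was found for 100 of the 182, so this feature was not rare. Of the 182 genes, 31 lay in intron 1 and 18 in intron 2.

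**Figure D1:**
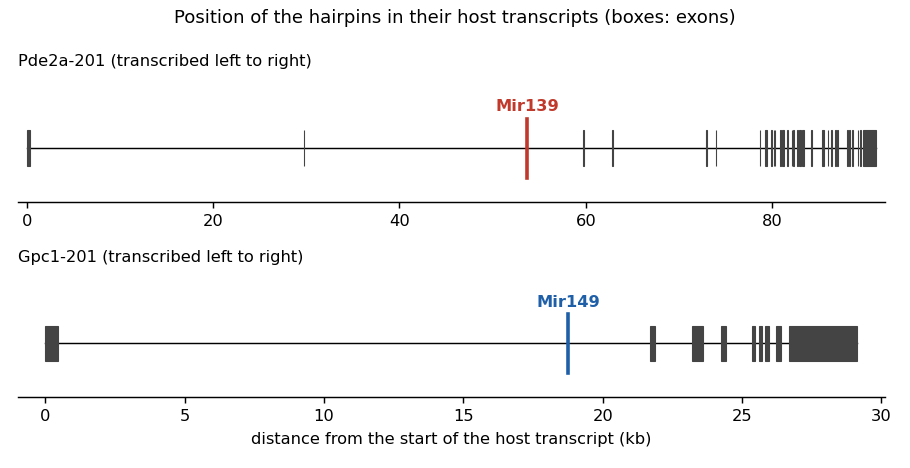
Exon maps of the host transcripts, a 31-exon transcript of Pde2a and the 9-exon transcript of Gpc1, drawn to scale as distance in kilobases from the transcript's start, with exons as boxes and each hairpin as a coloured line. Mir139 lies 53.7 kb into its host transcript and Mir149 lies 18.7 kb into its own, in both cases before most of the exons.

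Neither gene belongs to a cluster. No other microRNA gene of the files has Pde2a or Gpc1 as its host. The nearest other microRNA gene lies 405.7 kb from Mir139 and 385.8 kb from Mir149. The longest run of bases shared with any other microRNA gene was 11 for Mir139 and 15 for Mir149, below the 20 bases used here to mark near-identical copies, a mark that 1084 of the 2202 genes carried.

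Both genes were among the most counted microRNA genes in these libraries, by uniquely assigned reads. The counts on microRNA genes numbered 4815761 in replicate 1 and 3495401 in replicate 2. Mir139 had 153237 counts in replicate 1 and 200448 in replicate 2, which is 31820 and 57346 CPM. These values gave a mean of 44583 ± 18050 CPM (SD, n = 2). Mir149 had 122842 counts in replicate 1 and 67309 in replicate 2, or 25508 and 19256 CPM, with a mean of 22382 ± 4421 CPM (SD, n = 2). Mir139 was the higher of the pair in both libraries, and their values did not overlap, but Mir139 was higher in replicate 2 and Mir149 in replicate 1. As a share of all counts on genes, Mir139 held 3.18% in replicate 1 (95% Clopper-Pearson interval 3.17 to 3.20) and 5.73% in replicate 2 (5.71 to 5.76). Mir149 held 2.55% in replicate 1 (2.54 to 2.56) and 1.93% in replicate 2 (1.91 to 1.94). Together they held 5.73% and 7.66%. These intervals cover the counting error of reads only, and they are far narrower than the gap between the libraries. No molecular identifiers are stated for the reads, so reads copied from the same molecule cannot be told apart.

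No reads were counted on the opposite strand at either locus. The count of antisense reads was 0 for each gene in each library, and the unstranded counts equalled the sense counts. The 95% Clopper-Pearson interval of the antisense share reached up to 0.00241% and 0.00184% for Mir139 in replicates 1 and 2. For Mir149 the upper bounds were 0.00300% and 0.00548%. Pooled over all genes, antisense counts made up 5.52% of stranded counts in replicate 1 and 5.72% in replicate 2. This pooled share does not tell how many genes had an antisense count of 0, so it does not make the members unusual.

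In the order of levels over all genes, Mir139 took rank 7 in replicate 1, rank 4 in replicate 2 and rank 6 by the mean. The genes around it were Mir127, an imprinted microRNA antisense to Rtl1, and Mirlet7g above, and Mir770, which overlaps a Meg3 exon, and Mir487b below. Mirlet7g had 50277 and 52865 CPM in replicates 1 and 2, and Mir770 had 42211 and 29757 CPM. Mir127 ran from 84779 CPM in replicate 1 to 37071 in replicate 2, and Mir487b from 9941 to 39917 CPM. The range of Mir139 overlapped that of each of these 4 neighbours, so its order among them was not settled by 2 libraries. Mir149 took rank 8 in replicate 1, rank 11 in replicate 2 and rank 10 by the mean. It overlapped Mir298, an imprinted microRNA with 15952 and 29113 CPM, and Mirlet7d with 20958 and 19618 CPM, as well as Mir487b. Mir382, from the imprinted Dlk1-Dio3 region, lay below it without overlap, at 17117 and 16918 CPM. All these ranks are of uniquely assigned reads, since reads that fit several places were left out of the gene counts. The mark of near-identical copies was carried by 1084 of the 2202 genes, and the level of such genes may be understated.

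**Figure D2:**
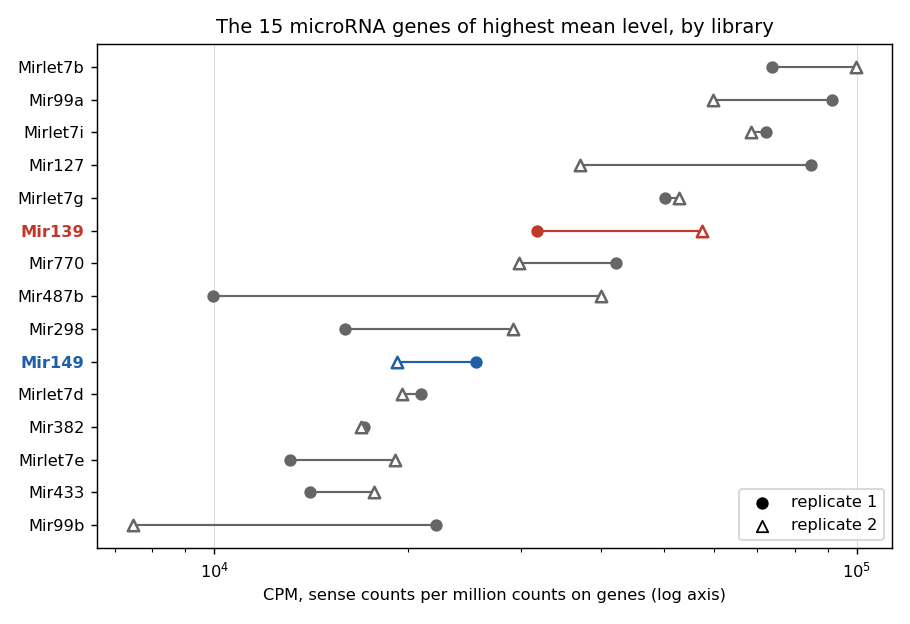
Level of the 15 microRNA genes with the highest mean, in CPM on a log axis, with a filled circle for replicate 1 and an open triangle for replicate 2. Mir139 (red, 31820 and 57346 CPM) and Mir149 (blue, 25508 and 19256 CPM) differ in direction, Mir139 being higher in replicate 2 and Mir149 in replicate 1.

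The genes most like each member were sought by the distance between log2(CPM + 1) values over the 2 libraries, where a distance of 1 equals a 2-fold gap in a single library. For Mir139 these were Mirlet7g (0.67), Mir770 (1.03) and Mirlet7i (1.21). For Mir149 they were Mirlet7d (0.28), Mir382 (0.61) and Mir433 (0.86). The distance between Mir139 and Mir149 was 1.61, and 7 genes were closer to Mir139 and 12 closer to Mir149 than the other member was. With 2 points per gene this measure reflects mostly the level.

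Within the brain-enriched list, Mir139 and Mir149 stood above the other 18 genes in both libraries. The list took 8.24% of all counts in replicate 1 and 10.7% in replicate 2. Mir149 is the lower of the pair chosen, and Mir132, a microRNA induced by neuronal activity, is the highest gene that was not chosen, with 4187 and 9936 CPM. By the mean, Mir139 was 6.31 times and Mir149 3.17 times the level of Mir132. In replicate 1 the closest gene was instead Mir138-1, which acts in dendrites, at 7072 CPM, and Mir149 had 3.61 times that level. In replicate 2 the margin of Mir149 was smaller, at 1.94 times Mir132.

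The shares of the pair within the list differed between the libraries by more than their sum did. Mir139 made up 38.6% of the list's counts in replicate 1 (95% Clopper-Pearson interval 38.4 to 38.7) and 53.7% in replicate 2 (53.5 to 53.8). Mir149 made up 30.9% (30.8 to 31.1) and 18.0% (17.9 to 18.1). Their sum was 69.5% and 71.7%, a mean of 70.6% ± 1.52 (SD, n = 2). Among the 6 list genes that have no near-identical copy, the sum was 85.4% and 84.2%. The other 4 of these are Mir132 and its neighbour Mir212, Mir137, a regulator of neuronal maturation, and Mir153, in an intron of Ptprn2. Mir137 had 5316 and 4111 CPM, Mir212 had 200.2 and 294.7, and Mir153 had 88.0 and 17.7.

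The remaining 14 list genes share at least 20 bases with another gene, and reads that fit several places were left out of the gene counts. They ranged by mean level from Mir138-1 at 5734 ± 1892 CPM (SD, n = 2) down to Mir124a-2, with 0 and 2 counts. Mir128-1 in R3hdm1 reached 4439 ± 1568 and Mir128-2 in Arpp21 reached 1847 ± 836 CPM (SD, n = 2 for both). Between these lay Mir138-2 at 2173 ± 299 CPM (SD, n = 2). The Mir129 genes had 862 ± 142 CPM for Mir129-2 and 289.8 ± 10.9 CPM for Mir129-1 (SD, n = 2 for both). Mir218-2 and Mir218-1, in introns of the axon guidance genes Slit3 and Slit2, had 138.7 ± 61.6 and 11.2 ± 2.92 CPM (SD, n = 2 for both). The Mir9 and Mir124a genes, which encode well known neural microRNAs, had few uniquely assigned reads, with at most 415 counts in a library for Mir9-3 and at most 13 for any Mir124a gene. Reads that fit several places numbered 30.4 times the counts of Mir139 in replicate 1 and 20.1 times in replicate 2, and how they divide among genes was not analysed here. The place of Mir139 and Mir149 at the top of the list is therefore a statement about uniquely assigned reads.

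**Figure D3:**
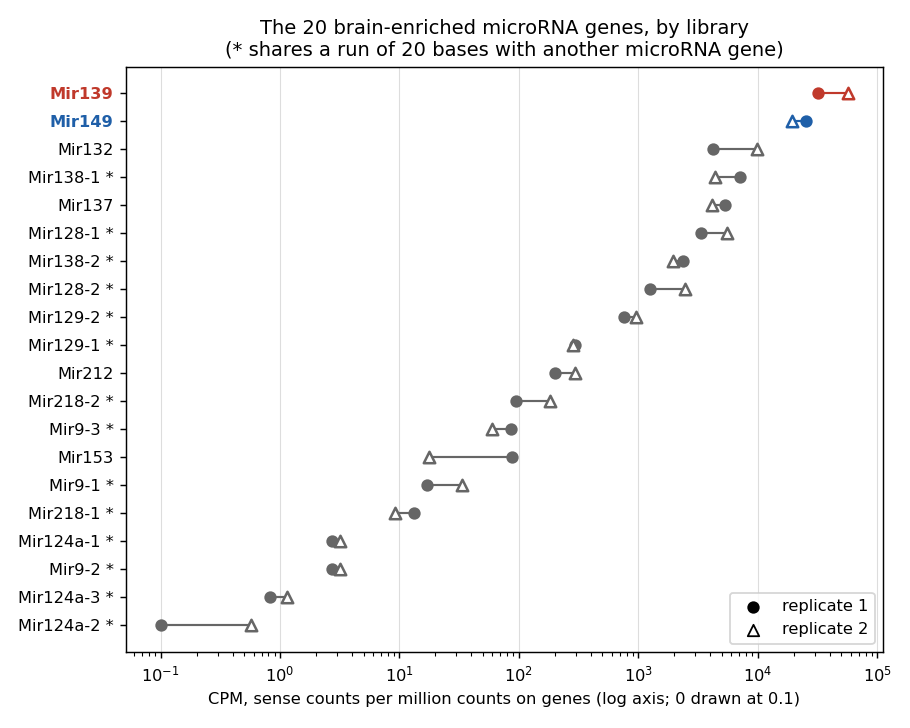
Level of the 20 brain-enriched microRNA genes in CPM on a log axis, by library, with an asterisk on genes that share a run of 20 bases with another microRNA gene. Mir139 and Mir149 lie above all others in both libraries, and all 6 genes of Mir9 and Mir124a carry the asterisk.

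Among microRNA genes that lie in introns of protein-coding genes, Mir139 and Mir149 were near the top. Because they were chosen for a high level, this place is a description and not a separate result. Of 729 such genes, 185 were detected. Mir139 took rank 2 among them in replicate 1 and rank 1 in replicate 2, and Mir149 took rank 3 in both. Together they held 20.3% of the counts of this class in replicate 1 and 26.3% in replicate 2. Mirlet7g, in an intron of Wdr82, was the highest by the mean, at 51571 ± 1830 CPM (SD, n = 2). Below Mir149 came Mirlet7e and Mir99b, both in Spaca6, then Mir744 in Map2k4, and Mir23b in 2010111I01Rik, which shares bases with a copy. Their means ran from 16110 ± 4270 CPM for Mirlet7e to 12087 ± 589 CPM for Mir23b (SD, n = 2 for both). In replicate 1 Mir99b, at 22132 CPM, came close to Mir149 (25508 CPM), and in replicate 2 Mirlet7e, at 19129 CPM, differed from Mir149 (19256 CPM) by under a percent.

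The ratio between the libraries was the measure that the choice of these genes did not use. From replicate 1 to replicate 2, Mir139 had a log2 ratio of 0.85, a 1.80-fold higher level in replicate 2, and Mir149 had a log2 ratio of -0.41, a 1.32-fold higher level in replicate 1. An exact two-sided binomial test compared the counts of these libraries, and not conditions, over 540 genes with at least 10 counts in total. A gene was said to differ when its Benjamini-Hochberg adjusted p was under 0.05 and its level differed at least 2-fold, a log2 ratio of 1 or more in size. By this rule 0 of the 2 genes differed, where 18.7% of tested genes did, 11.5% being higher in replicate 2 and 7.22% in replicate 1. By the adjusted p alone both differed, as did 55.7% of tested genes, with a log10 of the adjusted p of -6621 for Mir139 and -765 for Mir149. P-values of this size reflect the depth of these counts and contain no spread between animals.

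Among genes with a mean of at least 1000 CPM, the ratio of Mir139 was among the larger ones and that of Mir149 lay near the middle. Both members lay far above that bound. Of the 110 genes in this set, 20, Mir139 included, had an absolute log2 ratio at least as large as that of Mir139. Of these, 13 were higher in replicate 2. For Mir149 the corresponding count was 51 of 110. The median absolute log2 ratio of these 110 genes was 0.36, against 0.54 over all 540 tested genes. Of the 18 tested genes of the brain-enriched list, 10 were higher in replicate 2, with a median log2 ratio of 0.23, where 309 of all 540 were higher there and the median was 0.17. By the rule 2 of the 18 differed, Mir132 being higher in replicate 2 (1.25) and Mir153 higher in replicate 1 (-2.30). With DESeq2 size factors the median over tested genes was 0.0051, and the ratios were 0.68 for Mir139 and -0.57 for Mir149, so both kept their direction. The share of differing genes that were higher in replicate 2 went from 61.4% with library totals to 45.5% with those factors.

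The members' log2 ratios had opposite signs, so the ratio of Mir139 to Mir149 within a library differed more between the libraries than either level. Mir139 had 1.25 times the counts of Mir149 in replicate 1 (95% interval 1.24 to 1.26) and 2.98 times in replicate 2 (2.952 to 3.004). The ratio thus differed 2.39-fold between the libraries, a log2 difference of 1.26, and these intervals from exact binomial bounds cover counting error only. This ratio does not depend on the library total. Its mean was 2.11 ± 1.22 (SD, n = 2).

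**Figure D4:**
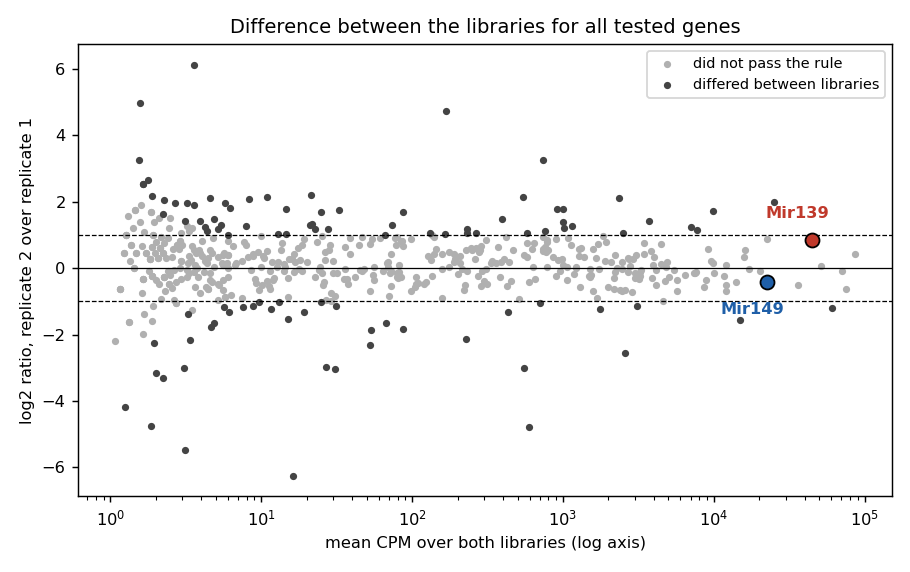
Log2 ratio of replicate 2 over replicate 1 against mean CPM on a log axis for the 540 tested genes, with genes that differed by the rule in dark grey and dashed lines at log2 ratios of 1 and -1. Mir139 (0.85) lies just inside the upper line and Mir149 (-0.41) lies below 0 and well inside the lower line.

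Some lists of cell type markers held genes that differed between the libraries by the rule, and others held none. Over all 540 tested genes, the rule called 11.5% higher in replicate 2 and 7.22% higher in replicate 1, and the counts that follow are by the same rule. The share of the red blood cell microRNAs was 0.123% in replicate 1 against 0.00764% in replicate 2, and 2 of 3 tested genes were higher in replicate 1. The choroid plexus and ciliated cell microRNAs took 0.258% and 0.533%, with 3 of 6 tested genes higher in replicate 2. The 4 myeloid genes took 0.0495% and 0.0906%, with 2 higher in replicate 2, and the 2 mural cell genes 0.396% and 0.439%, with 1 higher in replicate 2. In the striated muscle list, which took 0.0102% and 0.00326%, the 1 tested gene, Mir206, was higher in replicate 1. The 4 Mir1a and Mir133a genes of that list were at 0, and these share bases with copies. No tested gene was called in the lists of endothelium, oligodendrocytes, liver and Hox clusters. Mir126a of endothelium took 1.49% and 0.930%, and the 3 oligodendrocyte genes 0.104% and 0.174%. Mir122 of liver took 0.00395% and 0.00315%, and the Hox cluster genes 0.00328% and 0.00355%. Of the brain and neuron markers, 12 genes of which 10 have copies, none was at 0 in both libraries. They took 2.37% and 2.85%, and 1 of 10 tested genes, Mir132, was higher in replicate 2. The part of these cells in the ratios of Mir139 and Mir149 was not tested. In bulk tissue, fewer cells of a type and less RNA per cell cannot be told apart.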

How the data were processed

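The authors deposited raw read counts per microRNA gene, 1 file per library, with unstranded, sense and antisense columns. Per the submitters' processing notes deposited with the counts, the build was mm10 and the annotation GENCODE M21, and each file came from the reads of its own library. For the aligner, the counter, trimming and versions, nothing is stated in the sources used here. The sense column was taken as the stranded column with the larger total. All 2202 gene identifiers were named from GENCODE M21, and 968 of those genes matched the RefSeq table by symbol. Library sizes are sums over genes, without the summary lines. Of all reads, 38.9% in replicate 1 and 34.6% in replicate 2 were counted on genes, and 37.7% and 39.8% fitted several places. With 3 counts taken as an approximate limit for a count of 0, that limit was 0.623 CPM in replicate 1 and 0.858 in replicate 2.

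CPM, ranks, shares and ratios were computed from the deposited counts. Log2 ratios had 0.5 counts added. The test of the libraries was tested on simulated data that held counting error only, so this check does not cover the spread between animals. Folding energies came from RNAfold 2.7.2, on hairpins as annotated. Alternatives covered the strand column, denominator, scaling (TMM of edgeR 4.0.16, size factors of DESeq2 1.42.0), filters, ratio minimum, pseudocount, copies and each replicate left out. SciPy 1.17.1 and Python 3.11.15 were used. The members and lists were chosen with earlier results of these data known. Named genes were the members, the brain-enriched list, the 2 genes on either side in rank, the 3 most alike, seed matches and the 5 most abundant other intron genes.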

Additional observations from a re-analysis of the deposited data

How the results depend on the processing

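Each library alone gave 31820 to 57346 CPM for Mir139, 19256 to 25508 CPM for Mir149, 1.25 to 2.98 for their ratio, and 69.5% to 71.7% for their sum within the brain-enriched list. Per 1000000 reads of all kinds the mean levels were 16111 for Mir139 and 8296 for Mir149, and per 1000000 counted and multi-mapping reads 21420 and 10959, because the denominators are larger. Among list genes without a near-identical copy the sum was 84.8%, over fewer genes. The number of genes differing between the libraries was 101, and it was 59 with at least 100 counts in total, 174 with a ratio minimum of 1.5-fold and 301 with none. With no ratio minimum both members differed, at log2 ratios of 0.85 and -0.41, and with the 1.5-fold minimum Mir139 differed (0.85). The ratios ran from 0.68 to 0.85 for Mir139 and from -0.58 to -0.40 for Mir149 over the scalings, filters, strand columns and pseudocounts tried, and neither changed sign. No paired analysis was possible because there was 1 group. The depth leaves little counting error for these genes, and 2 libraries limit what can be said of the spread.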
